A study of Zea mays with 18 samples.

Results

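In the seedling leaves of the maize hybrid An'nong 591, 15 genes of the 39471 in the deposited table were found at a low level in heat-treated plants although they were among the abundant transcripts of control plants. They were chosen by a mean FPKM (counts scaled to the exonic length of the gene and to the total of the library) under 60 in the heat group and of at least 300 in the control group. The choice therefore used the heat against control contrast itself, so the difference between these groups is given for the 15 genes as a description, and no p-value or call on it counts as evidence. The group holds chlorophyll-binding and photosystem genes, a gene of sucrose synthesis, a gene of a transcription factor and 9 genes without a gene name, beside sdh1.

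The study sequenced RNA from the leaves of the hybrid and of its parental lines, in 18 libraries of 6 groups. The groups analysed here were F1, hybrid seedlings after 2 d of heat with days of 42 °C and nights of 35 °C, and CF1, control seedlings of the hybrid with days of 28 °C and nights of 23 °C, with 3 biological replicates each. Both groups are the same hybrid genotype, grown under a photoperiod of 16 h of light and 8 h of darkness, and the heat was given as 1 treatment of 1 length. The parental lines were not analysed here, because their columns could not be mapped to samples by name.

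The libraries held 12266758 to 14643512 counts on genes, with 24325 to 26718 genes detected in each. Replicates differed by more than counting error, with a mean chi-square per gene of 9.57 to 11.9 for 5 of the 6 pairs of replicates and of 25.8 for CF1-2 and CF1-3. The labelled tissue was checked by markers. The leaf genes pep1, pdk1, me3, ssu1 and rbcS of C4 photosynthesis and carbon fixation had means of 150 to 3919 FPKM in F1 and of 1820 to 10137 FPKM in CF1. The meristem gene kn1 was at 0 in all libraries, and 25 zein genes of the seed summed to at most 0.17 FPKM in F1 and to 0 in CF1. In such leaf RNA, fewer cells of a type and less RNA per cell cannot be told apart.

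In a leaf, light is collected by chlorophyll a/b-binding antenna proteins, encoded by a large nuclear gene family, and passed to photosystems I and II. The photosystems drive electron transport, whose products are used in carbon fixation, and part of the fixed carbon is exported as sucrose. Transcripts of the antenna and of the photosystem subunits are among the most abundant nuclear messages of a green leaf. Maize divides photosynthesis between mesophyll and bundle sheath cells, and heat is known to damage photosystem II and to slow carbon fixation.

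The control threshold was met by 182 genes, and the 15 genes are 8.24% of them. By mean FPKM, 166 of the 182 were lower in F1 than in CF1 and 16 were higher. The other 167 genes had a median CF1/F1 ratio of 3.44, and 73 of them were at 300 FPKM or more in F1 as well. For the 15 genes the median ratio was 10.2, with a range of 5.87 to 361, which follows from how they were chosen. The largest ratio among the other 167 was 34.4, and 48 of them had a larger ratio than the lowest of the 15, with F1 means of 60 or more.

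**Figure D1:**
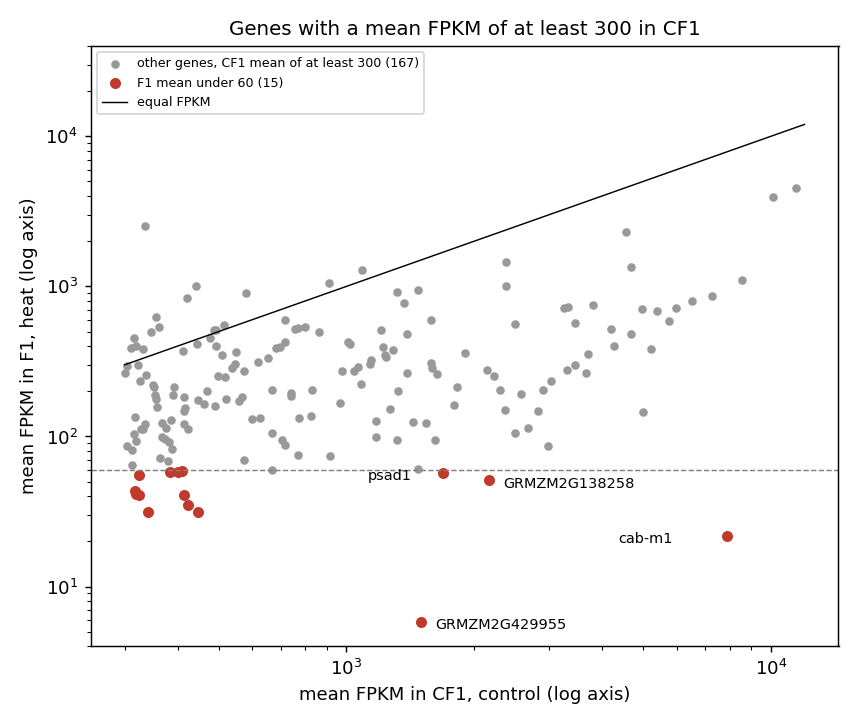
Mean FPKM in F1 (heat, vertical log axis) against mean FPKM in CF1 (control, horizontal log axis) of the 182 genes with a CF1 mean of at least 300, each point 1 gene and the mean of 3 libraries per group. The 15 genes under the dashed line at 60 FPKM are in red, with 11 of them at the left between 300 and 500 FPKM in CF1 and 4 named ones above 1000.

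By level in CF1 the 15 genes formed an upper group of 4 with means of at least 1000 FPKM and a lower group of 11 with means of 300 to 500 FPKM. None lay between. This gap depends on the cut at 60 FPKM in F1, since the C4 gene pDCT2, with 666 FPKM in CF1, missed it with 60.1 FPKM. Most of the 15 genes were not silent under heat. In F1 14 of the 15 were above 9.46 FPKM, the median of the expressed genes, and the exception was GRMZM2G429955.

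**Figure D2:**
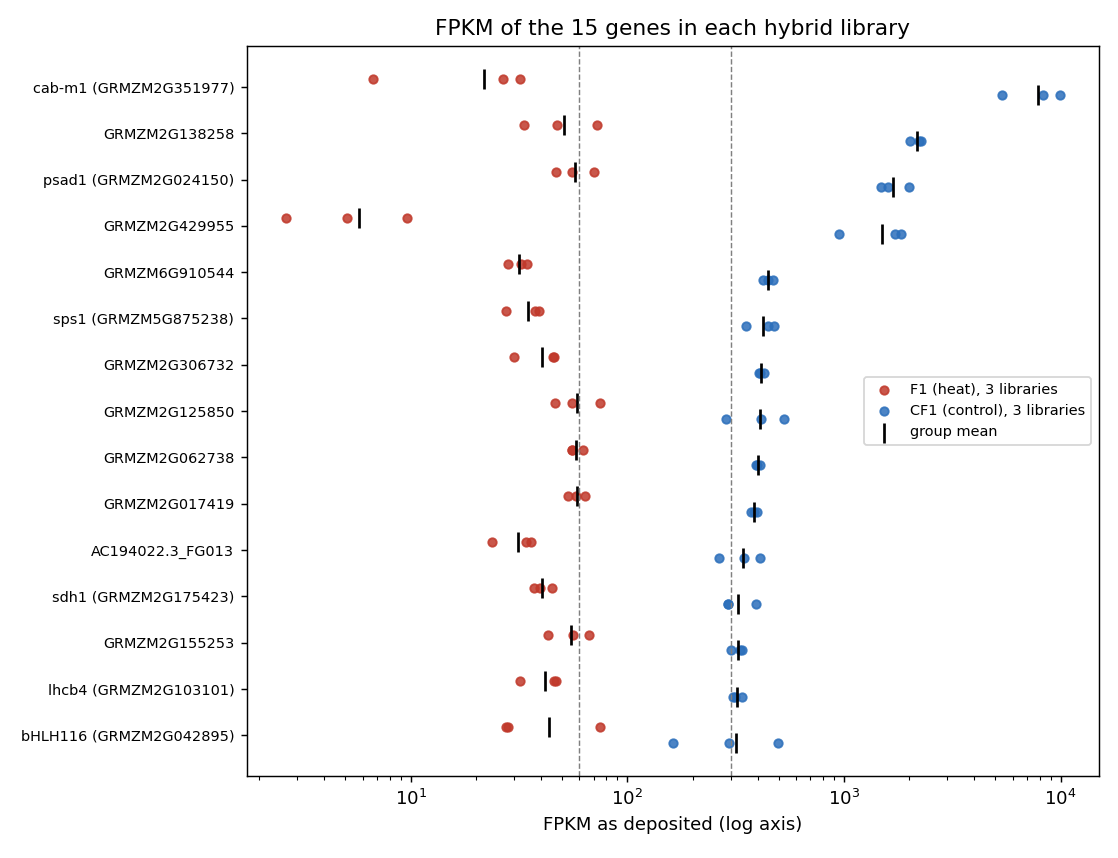
FPKM of the 15 genes in each library on a log axis, with the 3 F1 libraries (heat, red) drawn above the 3 CF1 libraries (control, blue) in each row, group means as black bars and the thresholds of 60 and 300 FPKM as dashed lines. The F1 libraries of cab-m1 sit between 6.7 and 32.1 FPKM and its CF1 libraries between 5358 and 9915 FPKM, and no gene has an F1 library above its lowest CF1 library.

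The most abundant of them was cab-m1 (GRMZM2G351977), which encodes a chlorophyll a/b-binding protein of the photosystem II antenna in mesophyll cells. It had 32.13, 26.56 and 6.7 FPKM in F1-1, F1-2 and F1-3, against 8314.89, 9914.54 and 5358.11 FPKM in CF1-1, CF1-2 and CF1-3. It ranked 4th of all genes in CF1 and 5137th in F1, where its mean was 0.277% of the CF1 mean. These values rest on 575, 478 and 118 counts in F1, against 145588, 160993 and 80780 counts in CF1. The smallest of these, 118 counts in F1-3, has a 95% Poisson interval of 97.7 to 141, which covers counting error only. The lowest CF1 library was still 167 times the highest F1 library, while the F1 libraries themselves differed by up to 4.8-fold.

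Of the 2 antenna genes in the group, lhcb4 (GRMZM2G103101) belongs to a minor antenna protein of photosystem II and was far less abundant than cab-m1 in CF1, while in F1 it was above cab-m1 in every library. It had 47.04, 32.11 and 45.65 FPKM in F1, against 312.76, 308.1 and 338.12 FPKM in CF1. The groups were apart in every library and the CF1/F1 ratio of the means was 7.68.

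The photosystem I subunit gene psad1 (GRMZM2G024150), whose protein lies on the stromal side where ferredoxin docks, had 69.95, 46.65 and 55.69 FPKM in F1, against 1593.52, 1997.77 and 1477.34 FPKM in CF1. Its ratio of the means was 29.4, and the F1-1 value alone was above the threshold of 60 FPKM.

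In the sucrose pathway, sps1 (GRMZM5G875238), named as a sucrose-phosphate synthase, the enzyme that makes sucrose phosphate in the cytosol, had 37.64, 27.65 and 39.3 FPKM in F1, against 444.57, 352.89 and 473.57 FPKM in CF1. Its ratio was 12.2. In both groups replicate 2 was the lowest.

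The bHLH transcription factor gene bHLH116 (GRMZM2G042895) had the largest coefficient of variation between replicates in both groups, 62.5% in F1 and 52.9% in CF1. It had 28.03, 27.65 and 74.96 FPKM in F1, against 294.18, 163.13 and 496.94 FPKM in CF1. The groups did not overlap, but its lowest CF1 library was only 2.18 times its highest F1 library, the smallest such gap among the 15 genes. The gene sdh1 (GRMZM2G175423), whose product the symbol alone does not settle, had 37.19, 39.69 and 44.86 FPKM in F1, against 290.9, 293.18 and 391.39 FPKM in CF1.

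Among the genes without a name, GRMZM2G429955 stood closest to cab-m1 in its ratio. It had 9.62, 5.11 and 2.65 FPKM in F1, against 1715.25, 1828.25 and 944.13 FPKM in CF1, a ratio of the means of 258. With 144, 77 and 39 counts in F1-1, F1-2 and F1-3 it had the lowest count of the 15 genes in F1-2 and in F1-3, and the 39 counts have a 95% Poisson interval of 27.7 to 53.3. Under heat its mean was above that of only 36.0% of the expressed genes.

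GRMZM2G138258 was the second most abundant of the 15 in CF1. It had 47.55, 33.26 and 72.2 FPKM in F1, against 2011.48, 2222.25 and 2274.86 FPKM in CF1, a ratio of 42.5. Its CF1 libraries were close to each other, while its F1 libraries differed by up to 2.17-fold.

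GRMZM6G910544 had 32.27, 28.04 and 34.29 FPKM in F1, against 447.18, 471.39 and 425.24 FPKM in CF1, a ratio of 14.2. GRMZM2G306732 had 46.07, 29.89 and 45.43 FPKM in F1, against 406.77, 426.8 and 408.12 FPKM in CF1, and with a ratio of 10.2 it was the median of the group. AC194022.3_FG013 had 36.12, 34.14 and 23.78 FPKM in F1, against 346.54, 410.95 and 263.88 FPKM in CF1. This is the shortest gene model of the 15, with 270 bases of exon, so that its values rest on 142, 135 and 92 counts in F1, against 1333, 1466 and 874 counts in CF1.

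The remaining 4 genes lay at ratios between 5.87 and 6.95, and their F1 means were close under the threshold. GRMZM2G125850 had 55.4, 46.57 and 74.56 FPKM in F1, against 413.51, 284.12 and 529.61 FPKM in CF1. GRMZM2G062738 had 55.36, 55.49 and 62.32 FPKM in F1, against 411.41, 393.04 and 397.43 FPKM in CF1. Both were in the same range as GRMZM2G017419, with 58.28, 53.03 and 63.63 FPKM in F1, against 397.19, 373.83 and 383.65 FPKM in CF1. The smallest ratio was that of GRMZM2G155253, with 56.26, 43.13 and 66.41 FPKM in F1, against 302.51, 339.97 and 331.26 FPKM in CF1.

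For all 15 genes every F1 library was below every CF1 library on the deposited FPKM, which was so for 16.2% of the 20622 expressed genes (mean FPKM of at least 1 in F1 or CF1). By edgeR's quasi-likelihood fit to the counts, with TMM scaling, all 15 were past a fold change of 2 and an FDR of 5% with lower values in F1, a call that 19.9% of the expressed genes had, beside 24.1% called higher in F1 and 44% called in either direction. Nothing is read from these counts, since the genes were chosen on this contrast. Log2 fold changes (F1 minus CF1) had a median of -4.15 over the 15 genes and ran from -9.29 ± 0.61 (SE) for cab-m1 and -8.80 ± 0.48 for GRMZM2G429955 to -3.35 ± 0.18 for GRMZM2G155253, beside a median of 0.05 over all expressed genes. FPKM is relative to the library total, and the TMM factors were 1.30 to 1.33 in F1 and 0.734 to 0.771 in CF1. With library totals in place of TMM, the median of the 15 genes was -3.35 and that of all expressed genes 0.85. The change of scale shifts all genes by nearly the same amount. The distance of the 15 genes from the median of all genes therefore stays the same by construction, while the size of their change differed.

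The 15 genes took 0.114%, 0.0935% and 0.130% of all counts on genes in F1-1, F1-2 and F1-3, against 2.56%, 2.79% and 2.24% in CF1-1, CF1-2 and CF1-3. The mean was 0.113% ± 0.0183 in F1 and 2.53% ± 0.277 in CF1 (SD, n = 3 each). The 95% Wilson interval of the smallest share, in F1-2, was 0.0919% to 0.0951%, which like all such intervals covers counting error only. In CF1 cab-m1 alone made up 37.7% of the counts of the 15 genes, and in F1 it made up 2.53%. Without cab-m1 the share was 0.110% ± 0.0195 in F1 and 1.56% ± 0.0205 in CF1 (SD, n = 3 each), so that the spread between the CF1 libraries was mostly that of cab-m1. The other 167 abundant genes took 11.9% ± 0.706 in F1 and 41.9% ± 1.21 in CF1 (SD, n = 3 each). Among the 100 genes with the most counts, none of the 15 was found in any F1 library and 6 were found in every CF1 library.

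**Figure D3:**
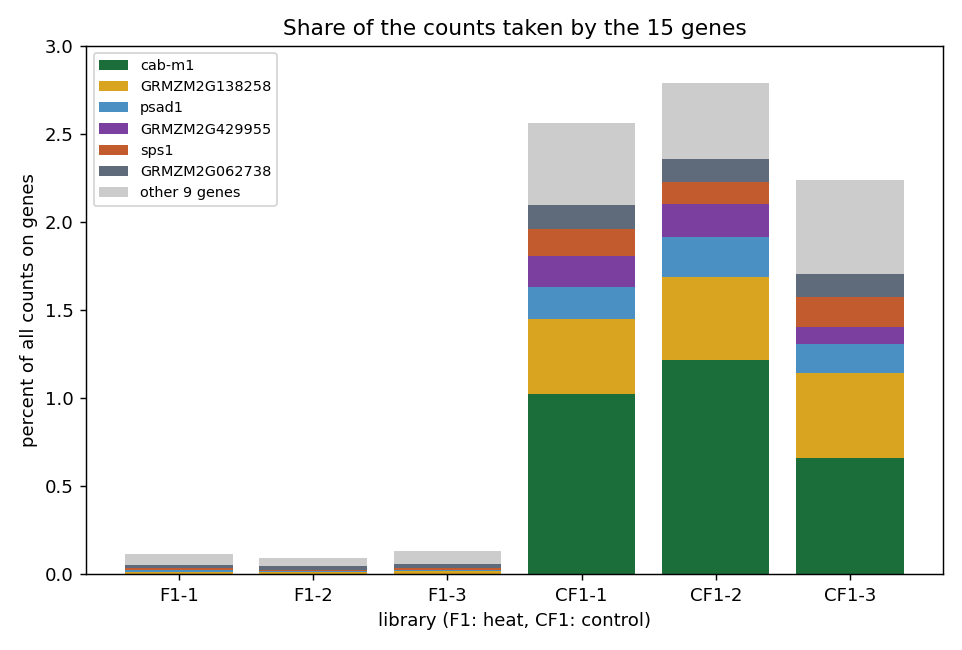
Percent of all counts on genes taken by the 15 genes in each library, with the F1 libraries (heat) at the left and the CF1 libraries (control) at the right and 1 colour per gene for the 6 named in the legend. The F1 bars reach 0.0935% to 0.130% and the CF1 bars 2.24% to 2.79%, and the cab-m1 part is the one that differs most between the CF1 bars.

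Within a group the libraries of these genes were uneven. The coefficient of variation in F1 had a median of 21.1% over the 15 genes, with a range of 6.90% to 62.5%. Its median was 7.92% for the 2055 other expressed genes with an F1 mean of 30 to 60 FPKM, a range that holds 13 of the 15. In CF1 the median was 14.9% for the 15 genes and 10.1% for the other 167 abundant genes. The largest values in F1 were those of bHLH116 with 62.5%, cab-m1 with 61.3% and GRMZM2G429955 with 61.0%. No F1 median was taken for the other 167 abundant genes, so the spread is not shown to be particular to the 15. Of those 167, psah1 had 401 ± 90.2 FPKM in F1 and lhcb5 95.1 ± 4.54 FPKM (SD, n = 3 each).

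The libraries that stood out were not the same for all genes. F1-2 was the lowest F1 library for 10 of the 15 genes and the highest for none, and it was the lowest for 65.3% of the other 167 abundant genes too. The genes cab-m1, GRMZM2G429955 and AC194022.3_FG013 were instead lowest in replicate 3, in F1 as well as in CF1. In contrast, bHLH116, GRMZM2G125850 and sps1 were highest in replicate 3 and lowest in replicate 2 of both groups. The same replicate number was the lowest in F1 and in CF1 for 9 of the 15 genes (60%), for 32.9% of the other 167 abundant genes and for 35.7% of all expressed genes. The same replicate number was the highest in F1 and in CF1 for 5 of the 15 genes (33.3%). That share was close to the 30.5% of the other 167 abundant genes and the 34.7% of all expressed genes. Some of these orders rest on near ties. In F1-1 and F1-2 bHLH116 had 28.03 and 27.65 FPKM, and in F1-1 and F1-3 sps1 had 37.64 and 39.3 FPKM. In CF1-1 and CF1-2 sdh1 had 290.9 and 293.18 FPKM. The counts of genes by lowest or highest library are therefore uncertain. All of these are descriptions of 3 libraries per group, and their cause was not tested.

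**Figure D4:**
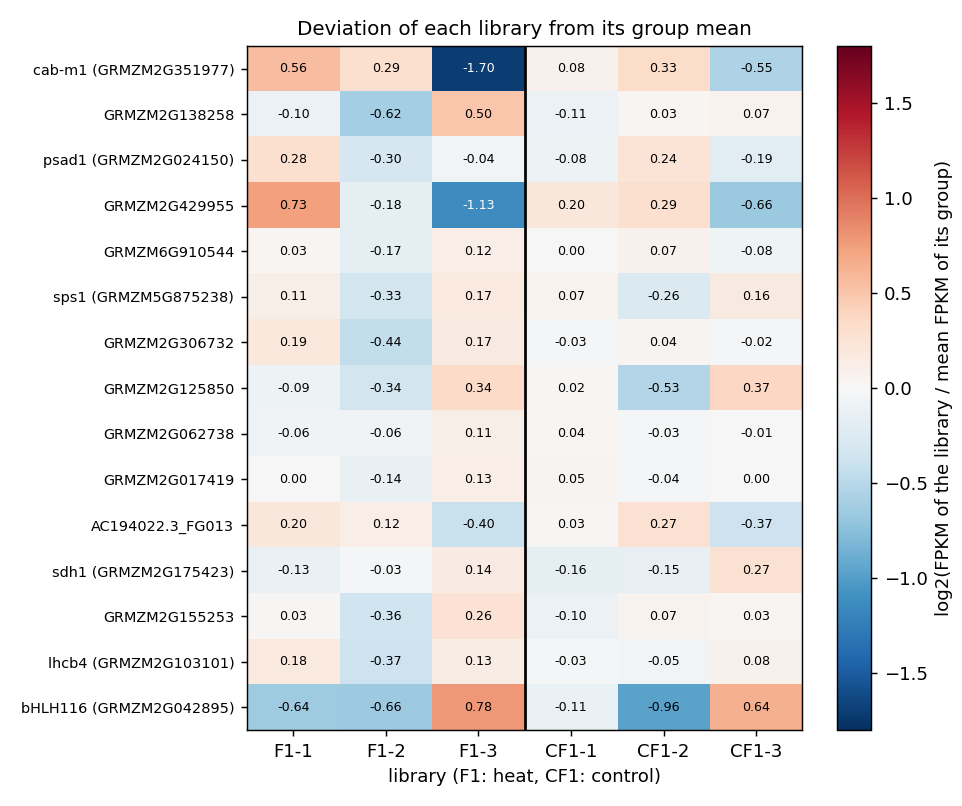
Log2 ratio of the FPKM in each library to the mean FPKM of its group for the 15 genes (rows, from high to low CF1 mean), with the F1 libraries (heat) left of the line and the CF1 libraries (control) right of it. F1-3 lies at -1.70 for cab-m1 and -1.13 for GRMZM2G429955 but at 0.78 for bHLH116, and CF1-3 lies at -0.55, -0.66 and 0.64 for the same genes.

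The unevenness of cab-m1 was shared by other genes with a very large ratio. In all, 40 expressed genes had a CF1 mean at least 100 times the F1 mean, and 5 of these had a CF1 mean of at least 100 FPKM. Besides cab-m1 and GRMZM2G429955 these were cab48 (GRMZM2G120619), also a chlorophyll a/b-binding protein gene, GRMZM2G104549, and dxs2 (GRMZM2G493395), of the first step of plastid isoprenoid synthesis. They were picked out after their values had been seen. Cab48 had 1.04, 1.48 and 0.65 FPKM in F1, against 271.46, 309.62 and 179.19 FPKM in CF1. GRMZM2G104549 had 1.06, 0.93 and 0.24 FPKM in F1, against 330.04, 355.55 and 171.67 FPKM in CF1. In cab-m1, GRMZM2G429955, cab48 and GRMZM2G104549 alike, replicate 3 was the lowest in both groups and CF1-2 the highest control library. The exception was dxs2, with 1.45, 0.52 and 0.58 FPKM in F1, against 122.23, 51.27 and 150.26 FPKM in CF1, and with its lowest CF1 value in replicate 2. Replicate 3 was the lowest library for 38.7% of all expressed genes in F1 and for 41.5% in CF1. The F1 values of cab48 and GRMZM2G104549 were at most 1.48 FPKM, so the order of their F1 libraries is uncertain.

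The named members of the same families were compared with the genes of the group, over lists of genes that RefSeq names. All 7 antenna genes tested were lower in F1 by the edgeR call, with a median log2 fold change of -4.59, and this count includes cab-m1 and lhcb4. Beside this and the other list counts, 19.9% of all expressed genes were called lower in F1 and 24.1% higher. By mean FPKM, 166 of the 182 genes with a CF1 mean of at least 300 were lower in F1. The members of the antenna list differed widely in how much was left. Cab-m7 (GRMZM2G402936) was about as abundant in CF1 as cab-m1, but it had 1215, 988.26 and 1104.84 FPKM in F1, against 8694.6, 9199.54 and 7763.25 FPKM in CF1. The FPKM of Cab-m7 over that of cab-m1 was 37.8, 37.2 and 165 in the F1 libraries, against 1.05, 0.928 and 1.45 in the CF1 libraries. Both values are per length of exon, but reads that fit more than 1 copy of this gene family could be lost or placed by the alignment, so levels of single copies are uncertain. The other antenna genes lhcb3, lhcb5 and lhcb6 were at means of 147, 95.1 and 163 FPKM in F1, against 2824, 1318 and 1791 FPKM in CF1, so that their F1 means kept them out of the group although their ratios were larger than that of lhcb4.

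All 7 photosystem genes tested, psad1 among them, were called lower in F1, with a median log2 fold change of -3.78. With library totals in place of TMM 5 of the 7 were called, without psbs1 and PSBQ1. The photosystem I genes psan1, psah1 and psa6 had means of 680, 401 and 481 FPKM in F1, against 5390, 4267 and 4674 FPKM in CF1. These are ratios of 7.92 to 10.6, where psad1 had 29.4. The gene psbs1, for a protein of photosystem II that acts in the release of excess light energy as heat, had 527 ± 47.3 FPKM in F1 and 767 ± 118 FPKM in CF1 (SD, n = 3 each).

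Of 6 sucrose genes, a list added because sps1 is in the group, 3 were called lower in F1 (sps1, spp1 and SPP2) and 1 was called higher (sus2), while sus1 and sh1 were not called. Their median log2 fold change was -1.32. The gene spp1, named as a sucrose-phosphate phosphatase, the enzyme of the step after sps1, had 43.59, 44.83 and 45.01 FPKM in F1, against 117.1, 108.34 and 123.08 FPKM in CF1. The sucrose synthase gene sus2 had 41.22, 36.6 and 28.66 FPKM in F1, against 4.84, 3.14 and 4.67 FPKM in CF1. The gene sh1, with a log2 fold change of 0.99 ± 0.23 (SE), was close to the fold threshold and was called higher in 6 of the 11 alternative fits, library totals among them.

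**Figure D5:**
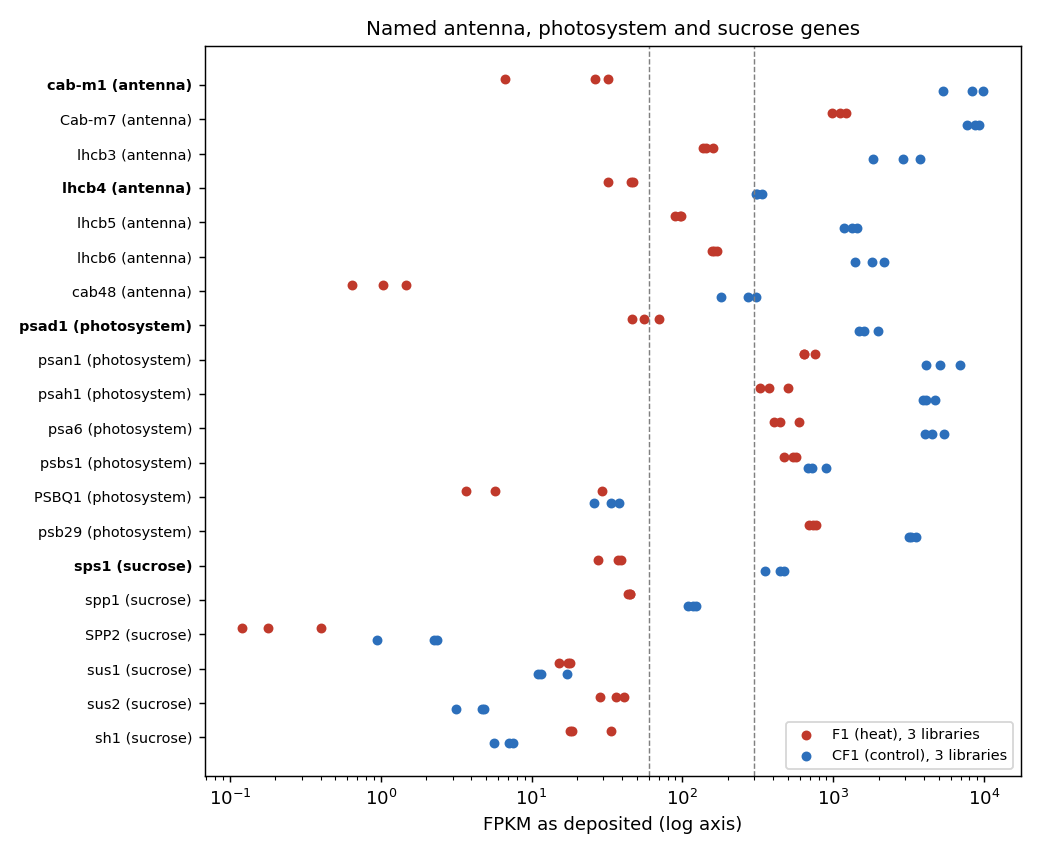
FPKM on a log axis of 7 antenna, 7 photosystem and 6 sucrose genes named by RefSeq, with the 3 F1 libraries (heat, red) above the 3 CF1 libraries (control, blue) in each row, the thresholds of 60 and 300 FPKM dashed and the genes of the group in bold. Cab-m7 and cab-m1 lie close together in CF1 and apart in F1, where Cab-m7 averages 1103 FPKM and cab-m1 21.8 FPKM.

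No named gene of electron transport, carbon fixation or the C4 cycle was among the 15. Only 6 of the 15 had a gene name, so the others could not be placed in these lists. In electron transport 6 of 8 genes were called lower and 1 higher (fdx3), with a median log2 fold change of -1.89, and 4 were called lower with library totals. In the Calvin cycle 5 of 6 were called lower and 1 higher (rca3), with a median of -3.52. In the C4 cycle all 7 were called lower, with a median of -2.17, but only 4 with library totals. Of 15 heat shock gene models 12 were called higher and none lower, with a median of 6.37. Among those called higher, GRMZM2G111477 and GRMZM2G458208 both carry the name HSP60-1. The C4 gene pDCT2 came nearest to the group, with 62.32, 55.35 and 62.69 FPKM in F1, against 635.67, 648.72 and 714.87 FPKM in CF1.

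The thresholds cut through a continuous range. Just inside the F1 threshold were GRMZM2G125850, GRMZM2G017419 and GRMZM2G062738 with F1 means of 58.8, 58.3 and 57.7 FPKM. Just outside were pDCT2, GRMZM2G036880 and GRMZM2G025171 with 60.1, 60.6 and 64.6 FPKM in F1, against 666, 1471 and 312 FPKM in CF1. On the CF1 side bHLH116, lhcb4 and GRMZM2G155253 were just inside with CF1 means of 318, 320 and 325 FPKM, and GRMZM2G456086, GRMZM5G835235 and GRMZM2G104549 just outside with 299.9, 289.1 and 285.8 FPKM. In 8 of the 15 genes every F1 library was under 60 FPKM, in 11 every CF1 library reached 300 FPKM, and 6 genes met both. On FPKM divided by the TMM factors 50 genes passed the same thresholds, all 15 among them. Without F1-2, the lowest F1 library for most of the genes, 11 of the 15 passed, and psad1, GRMZM2G125850, GRMZM2G017419 and GRMZM2G155253 did not.

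The exonic length of the 15 genes had a median of 1584 bases, with a range of 270 to 3509, close to the median of 1561 bases of the other 167 abundant genes. RefSeq held 11 of the 15 genes (73.3%), 91.6% of the other 167 and 69.1% of all expressed genes. In RefSeq's gene order 10 of the 15 had a neighbour that could be looked up in the table, and for none of these 10 was it another of the 15. The abundant neighbours were L-FNRII (GRMZM2G059083), a ferredoxin-NADP reductase gene beside GRMZM2G138258, with a mean of 213 FPKM in F1, against 391 FPKM in CF1, and GRMZM2G306679 beside GRMZM2G306732. This last pair went opposite ways, since GRMZM2G306679 had a mean of 174 FPKM in F1, against 0.0567 FPKM in CF1, while GRMZM2G306732 had 40.5 FPKM in F1, against 414 FPKM in CF1.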

How the data were processed

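RNA of seedling leaves was sequenced in 3 biological replicates per group. Per the labels and the paper's methods, the authors aligned reads to maize RefGen_v3 and counted them per gene. The submitters' processing notes name HISAT2 2.0.1, HTSeq 0.6.1 and DESeq 1.10.1. For differential expression the paper's methods name DESeq2, where these notes name DESeq. The authors deposited raw counts and FPKM values, which equal counts divided by exonic length and library total (within 0.01 for 99.99% to 100% of the values of a library). The other 24 per-sample columns match no label and were not used. The members and lists were chosen with earlier results of these data known.

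Counts of the 20622 expressed genes were compared by edgeR 4.0.16 (R 4.3.3) quasi-likelihood tests with TMM, and calls needed a 2-fold change or more and a Benjamini-Hochberg FDR of 0.05 or less. DESeq2 1.42.0 was an alternative. The self-test of this comparison on simulated counts recovered 191 of 200 genes changed by 2 on the log2 scale, among 20622, and called 10 unchanged genes. It changed as many genes up as down, so it cannot judge the choice of scaling. Named genes were all members, the lists' genes and those nearest the thresholds; the genes with 100-fold ratios and the neighbours were added after values were seen. Names came from RefSeq (NAM-5.0), matched by ID for 18907 genes and not by coordinates. The gene order used for the neighbours came from the positions in NAM-5.0, not in RefGen_v3. Shares carry Wilson and counts exact Poisson intervals (counting error only). Figures used matplotlib 3.10.9.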

Additional observations from a re-analysis of the deposited data

How the results depend on the processing

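The 11 alternative fits used library totals, median-of-ratios size factors, DESeq2, no filter, the replicate block and each library left out. The 15 genes were called lower in F1 in each of them, which their choice on the same libraries fixes, so that it is no sign of stability. With library totals in place of TMM, 1900 genes were called lower and 9278 higher in F1 (4102 and 4963 with TMM, so 83.0% against 54.7% of the calls were higher), and the 15 genes had a median log2 fold change of -3.35. Leaving out 1 library at a time gave 8807 to 9112 calls in all, 4002 to 4139 lower and 4778 to 4973 higher in F1, and medians of -4.25 to -3.97 for the 15 genes. Without the filter 10361 of 29383 genes were called.

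The number of genes that passed the choice by 60 and 300 FPKM depended on the thresholds. It was 50 on FPKM divided by the TMM factors, 6 where every library had to pass, 46 with a CF1 mean of at least 200 and 4 with at least 500, 2 with an F1 mean under 30 and 36 with under 100, and 11 to 18 with 1 library left out. The share of counts of the 15 genes was 0.104% to 0.122% in F1 and 2.40% to 2.68% in CF1 with 1 library left out. It was 1.56% in CF1 without cab-m1. Set against a total without the 100 most counted genes, the counts of the 15 genes came to 0.133% in F1 and 4.06% in CF1. That total leaves out cab-m1, whose counts stay among those of the 15 genes, so these values are not shares of that total.

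Replicate numbers were not taken as pairs in the fit. Deviations of same-numbered F1 and CF1 libraries correlated at 0.0571, -0.0225 and 0.0232 across 16722 genes with a mean of at least 50 counts. Whether the 15 genes share an effect of replicate number was not tested. With the replicate block 8948 genes were called, and the median of the 15 genes was -4.18. For 12 of the 15 genes the standard error was smaller with the block: 0.18 in place of 0.50 for bHLH116, 0.28 in place of 0.48 for GRMZM2G429955 and 0.41 in place of 0.61 for cab-m1. The comparisons of the parental lines and the promoter motifs were not run, since columns could not be mapped and no sequences were used. Planned lists of photorespiration, cell wall and lipid transfer, defence, transporter and ribosomal protein genes were not built. The gene names came without the descriptions that these lists needed. Counts in F1 were lowest for GRMZM2G429955 and AC194022.3_FG013.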
